A study of Mus musculus with 12 samples.

Results

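The milk protein genes followed here are the casein genes Csn1s1, Csn1s2a, Csn2 and Csn3 and the whey protein genes Wap and Lalba. They were chosen by the function of their products and are 6 of the 21743 genes in the Drop-seq table of Brca1-deficient mammary glands and tumors. Csn1s1, Csn1s2a and Csn2 encode the calcium-binding caseins, and Csn3 encodes kappa-casein, which coats the casein micelle and keeps it in solution. Wap encodes whey acidic protein, and Lalba encodes alpha-lactalbumin, the subunit that turns a galactosyltransferase into lactose synthase. Together they contributed 110477 of the 75048028 unique molecular identifiers (UMIs) counted.

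Milk proteins are made by the secretory (alveolar) cells of the luminal layer, under prolactin, which acts through its receptor, the kinase Jak2 and the transcription factor Stat5. The luminal layer also holds hormone-sensing cells, which carry estrogen and progesterone receptors, and beneath it lie the contractile basal cells. Casein transcripts are among the most abundant in lactation and are present at lower levels in secretory cells of virgin glands.

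The material came from 2 mice whose background mixed C57BL/6 with 129/Sv, and both carried MMTV-Cre and floxed Brca1 alleles (Brca1flox/flox). MMTV-Cre is active in mammary epithelium, and every group carried it, so no group had a genotype with intact Brca1 for comparison. Deletion was aimed at the epithelium, and which cells had lost Brca1 was not tested. Each mouse gave the fourth mammary glands (MG1 in mouse 1, MG2 in mouse 2) and a mammary tumor (MT1 in mouse 1, MT2 in mouse 2). Dissociated cells were depleted of hematopoietic and endothelial cells before capture, and neither the age nor the reproductive state of the mice was given in the labels. The authors' gland preparation names virgin and pregnant females, without saying which of these the 2 mice were. There were 2 libraries of MG1, 2 of MG2, 5 of MT1 and 3 of MT2. Libraries of 1 group repeat the preparation of 1 tissue of 1 mouse, so the error between them is not the error between mice.

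The 4 casein genes lie within 266.343 kb of chromosome 5 in GRCm38.p6, together with Csn1s2b. By RefSeq, Csn1s1 is at chr5:87666208-87682578 on the plus strand and Csn2 at chr5:87692619-87699429 on the minus strand. Csn1s2a is at chr5:87774450-87788798 and Csn3 at chr5:87925579-87932550, both on the plus strand. The whey protein genes are elsewhere, Wap at chr11:6635483-6638654 and Lalba at chr15:98480400-98482934, both on the minus strand.

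RefSeq promoter sequences of GRCm38.p6 were matched for 5 of the 6 genes, all but Csn3. They were searched for TTCNNNGAA, the palindromic letters bound by Stat5, which read the same on both strands. Within 250 bases upstream of the start site of each promoter entry, the letters occurred once in Csn1s1, at -100 as TTCTTAGAA. They occurred once in Csn2, at -93 as TTCTTGGAA. For Csn2 and Wap this start site lay a few bases inside the gene bounds given above. The letters were absent from this window in Csn1s2a, Wap and Lalba. The Lalba window (chr15:98482684-98482933, minus strand) lay wholly inside the gene bounds, so bases upstream of those bounds were not searched. Of all 32851 promoter windows of this length, 2306 (7.02%) held the letters. The Csn1s1 window (chr5:87665958-87666207, plus strand) and the Csn2 window (chr5:87699426-87699675, minus strand) are shown because their genes are neighbours that differed in MT1, and the Wap window (chr11:6638650-6638899, minus strand) as a whey gene with no match. Capitals mark the matched letters, which describe the sequence and not a bound site.

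Csn1s1: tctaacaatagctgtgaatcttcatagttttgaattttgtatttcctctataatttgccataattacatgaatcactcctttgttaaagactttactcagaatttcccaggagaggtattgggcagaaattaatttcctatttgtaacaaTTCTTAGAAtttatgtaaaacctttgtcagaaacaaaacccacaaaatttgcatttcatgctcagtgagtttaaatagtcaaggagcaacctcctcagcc

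Csn2: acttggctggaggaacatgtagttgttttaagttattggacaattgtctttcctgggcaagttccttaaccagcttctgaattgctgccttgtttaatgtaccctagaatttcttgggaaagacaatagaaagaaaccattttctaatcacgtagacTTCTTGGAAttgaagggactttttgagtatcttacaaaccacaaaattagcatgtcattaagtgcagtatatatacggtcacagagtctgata

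Wap: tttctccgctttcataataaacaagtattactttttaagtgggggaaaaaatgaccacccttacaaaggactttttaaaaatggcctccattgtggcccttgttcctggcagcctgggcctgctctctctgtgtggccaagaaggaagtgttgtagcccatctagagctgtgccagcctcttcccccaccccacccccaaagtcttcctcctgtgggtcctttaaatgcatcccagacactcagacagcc

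The libraries held 21157 cells, 818 of MG1, 2335 of MG2, 7690 of MT1 and 10314 of MT2. Depth ranged from 693333 UMIs (MG1 replicate 2, 105 cells) to 14841414 UMIs (MT2 replicate 1). Libraries had a median of 1784 to 4842 UMIs per cell. Pairs of libraries shared 0 to 7 cell barcodes, and no pair within a group agreed within sampling noise. Cells were clustered with the milk protein genes left out, and clusters were named from marker genes. The secretory-like cluster had 11 of 12 secretory markers at least 2-fold above the other cells, the hormone-sensing-like cluster 10 of 11 of its markers, and the basal-like cluster 10 of 12. The fibroblast-like and endothelial-like clusters each had 10 of 10, and the endothelial-like cluster also had 6 of 12 basal markers. MT1 fell mainly into epithelial-like clusters with high Sfrp1 or Ccl20 and an unnamed cluster with high Prl2c3. MT2 fell mainly into unnamed clusters with high Ptgs2 or Cenpe, in which 0 of 9 general epithelial markers were raised.

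Milk protein RNA was abundant in the glands, scarcer in MT1 and close to absent in MT2. In the glands the 6 genes took 0.292% and 1.04% of the UMIs of MG1 replicates 1 and 2, and 0.894% and 0.854% of those of MG2 replicates 1 and 2. In the 5 MT1 libraries they took between 0.0787% and 0.108%. In the 3 MT2 libraries they took between 0.000283% and 0.000768%. The 4 gland libraries were therefore above all tumor libraries, and the MT1 libraries above all MT2 libraries, without overlap. In whole-library sums, fewer cells of a type and less RNA per cell cannot be told apart.

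The genes were then compared between tumor and gland of the same mouse on UMIs summed per library outside the stromal clusters. Levels are counts scaled to a TMM-corrected library total of 1000000 (CPM), and fold changes are from edgeR's quasi-likelihood test with Benjamini-Hochberg adjustment over 13653 genes. All 6 genes were called lower in MT1 than in MG1, as were 27.1% of all genes tested, and all 6 were called lower in MT2 than in MG2, as were 34.2%. In mouse 1 the decrease differed widely between genes, from 1.94-fold for Csn3 to 244-fold for Csn1s2a in pooled CPM. The size for Csn1s2a and Csn2 rested much on MG1 replicate 2, without which their log2 fold changes went from -9.07 to -6.32 and from -7.74 to -5.60, still called. In mouse 2 the smallest decrease was 1233-fold, for Csn3.

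Csn3 was the gene that changed least in mouse 1. Its level was 1631 and 1554 CPM in MG1 and 945, 709, 687, 882 and 836 CPM in MT1. In mouse 2 it was 2776 and 2849 CPM in MG2 and 3.24, 0.994 and 3.30 CPM in MT2. All MT1 libraries lay below both MG1 libraries, and the MT2 libraries lay far below both MG2 libraries. The log2 fold change by edgeR was -0.97 ± 0.21 (SE, adjusted p = 0.000705) in mouse 1 and -10.12 ± 0.33 (adjusted p = 4.29e-14) in mouse 2.

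Csn1s1 stood second in MT1. Its level was 991 and 2219 CPM in MG1 and 116, 154, 119, 143 and 163 CPM in MT1. In mouse 2 it was 1303 and 1152 CPM in MG2 and 0.958, 0.382 and 0.944 CPM in MT2. No library of a tumor reached any library of its gland. By edgeR the log2 fold change was -3.52 ± 0.22 (adjusted p = 1.31e-09) in mouse 1 and -10.61 ± 0.38 (adjusted p = 9.62e-14) in mouse 2.

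Csn2, which encodes beta-casein, was low in both tumors. Its level was 584 and 4531 CPM in MG1 and 2.94, 12.5, 11.9, 14.9 and 13.1 CPM in MT1. In mouse 2 it was 2772 and 2458 CPM in MG2 and 2.36, 0.994 and 2.04 CPM in MT2. The MG1 libraries stood far apart from each other, and MT1 replicate 1, with 5 Csn2 UMIs, was below the other 4 MT1 libraries. By edgeR the log2 fold change was -7.74 ± 0.51 (adjusted p = 1.75e-09) in mouse 1 and -10.49 ± 0.70 (adjusted p = 3.10e-10) in mouse 2.

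Csn1s2a behaved like Csn2. Its level was 271 and 3356 CPM in MG1 and 0, 4.31, 4.38, 3.13 and 2.91 CPM in MT1. In mouse 2 it was 2098 and 1521 CPM in MG2 and 1.11, 0.612 and 1.18 CPM in MT2. MG1 replicate 1 was the lowest gland library, and MT1 replicate 1 held no Csn1s2a UMI, which allows up to 1.78 CPM of its whole library at 3 counts. By edgeR the log2 fold change was -9.07 ± 0.64 (adjusted p = 4.32e-09) in mouse 1 and -10.84 ± 0.82 (adjusted p = 1.75e-09) in mouse 2.

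The whey protein genes were the scarcest members in the tumors. Lalba was at 150.2 and 150.3 CPM in MG1, 213 and 234 CPM in MG2, between 0.583 and 2.35 CPM in MT1 and between 0.0765 and 0.221 CPM in MT2. It had a log2 fold change by edgeR of -6.77 ± 0.22 (adjusted p = 3.38e-13) in mouse 1 and -10.56 ± 0.28 (adjusted p = 7.94e-15) in mouse 2. Wap was at 1.25 and 221 CPM in MG1, 169 and 180 CPM in MG2, and between 0.196 and 0.588 CPM in MT1, where 7 UMIs were counted in all. No Wap UMI was counted in MT2. Wap was called lower in MT1 (log2 fold change -7.77 ± 1.27, edgeR adjusted p = 8.55e-05), and this call was lost without MG1 replicate 2 (-1.70), the library with nearly all Wap of MG1. In MT2 it was at least 2524-fold lower than in MG2, from the pooled CPM of MG2 against 3 counts over MT2.

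**Figure D1:**
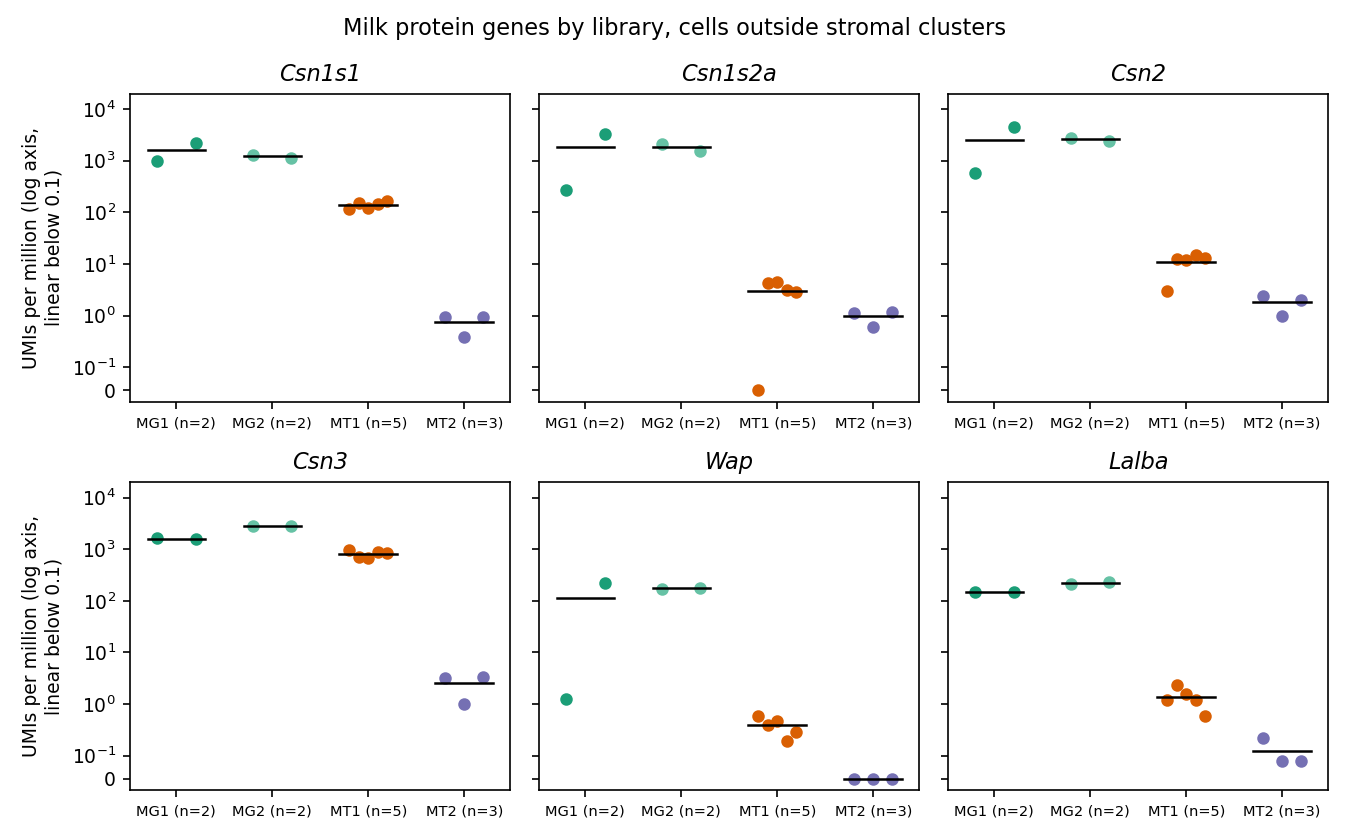
Level of each milk protein gene in each library (CPM, log axis, linear below 0.1), from cells outside the stromal clusters, 1 panel per gene and 1 point per library of MG1, MG2, MT1 and MT2. Csn3 in the 5 MT1 libraries (687 to 945) lies just under the MG1 libraries (1554 and 1631), whereas the other genes fall further and every gene is below 4 in the MT2 libraries.

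With the mouse as the replicate (4 sums, mouse as block, 1 residual degree of freedom), edgeR called 0 of the 6 genes and 0 of 14946 genes (0% called, 2214 at unadjusted p under 0.05), while DESeq2 on the same sums called all 6 and 1329 genes. The log2 fold changes of the members in that fit ranged from -5.48 (Csn3) to -9.38 (Wap), with unadjusted p from 0.0016 (Csn1s2a) to 0.233 (Csn3).

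The tumor-gland difference was not the same in the 2 mice. The interaction was tested in the same edgeR fit, where 26.4% of all genes were called with a higher tumor-to-gland ratio in mouse 1. The members called in that direction were Csn3 (9.14 ± 0.41 on the log2 scale, adjusted p = 9.96e-12), Csn1s1 (7.10 ± 0.46, adjusted p = 7.50e-10), Lalba (3.79 ± 0.52, adjusted p = 1.30e-05) and Csn2 (2.74 ± 0.81, adjusted p = 0.0113). The interaction was 1.77 ± 1.10 for Csn1s2a (adjusted p = 0.204) and 5.22 ± 3.89 for Wap (adjusted p = 0.298), neither called. DESeq2 did not call Csn2 and did call Wap.

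Between the tumors directly, 4 of 6 genes were called higher in MT1 than in MT2, against 35.3% of all genes. The log2 fold change by edgeR was 8.32 ± 0.30 for Csn3, 7.47 ± 0.34 for Csn1s1, 3.21 ± 0.49 for Lalba and 2.70 ± 0.61 for Csn2. Csn1s2a (1.76 ± 0.92, adjusted p = 0.0981) and Wap (4.17 ± 3.71, adjusted p = 0.331) were not called. Both were called by edgeR when MG1 replicate 1 or MG1 replicate 2 was left out (adjusted p of 0.000313 and 0.000334 for Csn1s2a, 0.00028 and 0.000291 for Wap), and Wap was called by DESeq2 (adjusted p = 0.00404). Comparisons of MT1 share the same 5 libraries, and those of MT2 the same 3, so these values are not independent of those above.

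Between the glands, edgeR called 0 of the 6 genes, where 5.37% of all genes were called (733, with 2859 at unadjusted p under 0.05). The log2 fold change of MG1 over MG2 was 0.38 ± 0.28 for Csn1s1, -0.82 ± 0.26 for Csn3 (adjusted p = 0.0769) and -0.57 ± 0.19 for Lalba (adjusted p = 0.0851). For Csn2 and Csn1s2a it was -0.05 ± 0.54 and -0.02 ± 0.61, which hides a large spread, since MG1 replicate 1 was below and MG1 replicate 2 above both MG2 libraries. Leaving out either MG1 library gave 3 calls among the 6, with 1590 of 14639 genes called without MG1 replicate 1 and 893 of 14238 without MG1 replicate 2. Csn1s2a and Csn2 were both higher in MG1 without its replicate 1 (0.80 and 0.71) and both lower without its replicate 2 (-2.75 and -2.17).

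The makeup of the milk RNA also differed between groups. Csn3 took 45.1% and 12.8% of the UMIs of the 6 genes in MG1 and 29.96% and 33.7% in MG2. In MT1 it took 88.7%, 79.7%, 83.3%, 84.4% and 82.6%. In MT2 replicates 1 and 3 it took 42.1% and 44.0%. Drop-seq counts each captured 3' end once, so these shares were not divided by gene length. The share was 83.8% ± 3.25 (SD, n = 5) in MT1 and 29.0% ± 22.8 (SD, n = 2) in MG1, a difference of 54.8 percentage points, with no overlap (exact two-sided permutation p = 0.0952 over 21 arrangements, the smallest this design allows). This test was chosen after the values had been seen.

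In group sums, the glands had a mixed makeup. Csn3, Csn2, Csn1s1 and Csn1s2a took 30.8%, 25.6%, 23.3% and 16.6% of the milk UMIs of MG1. In MG2 they took 31.8%, 29.6%, 13.8% and 20.3%. In MT1 they took 83.6%, 1.33%, 14.5% and 0.355%. The Csn3 and Csn1s1 UMIs thus made up nearly all of the milk RNA of MT1, while the few milk UMIs of MT2 (254) were spread over Csn3 (105), Csn2 (73), Csn1s2a (38), Csn1s1 (30) and Lalba (8).

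**Figure D2:**
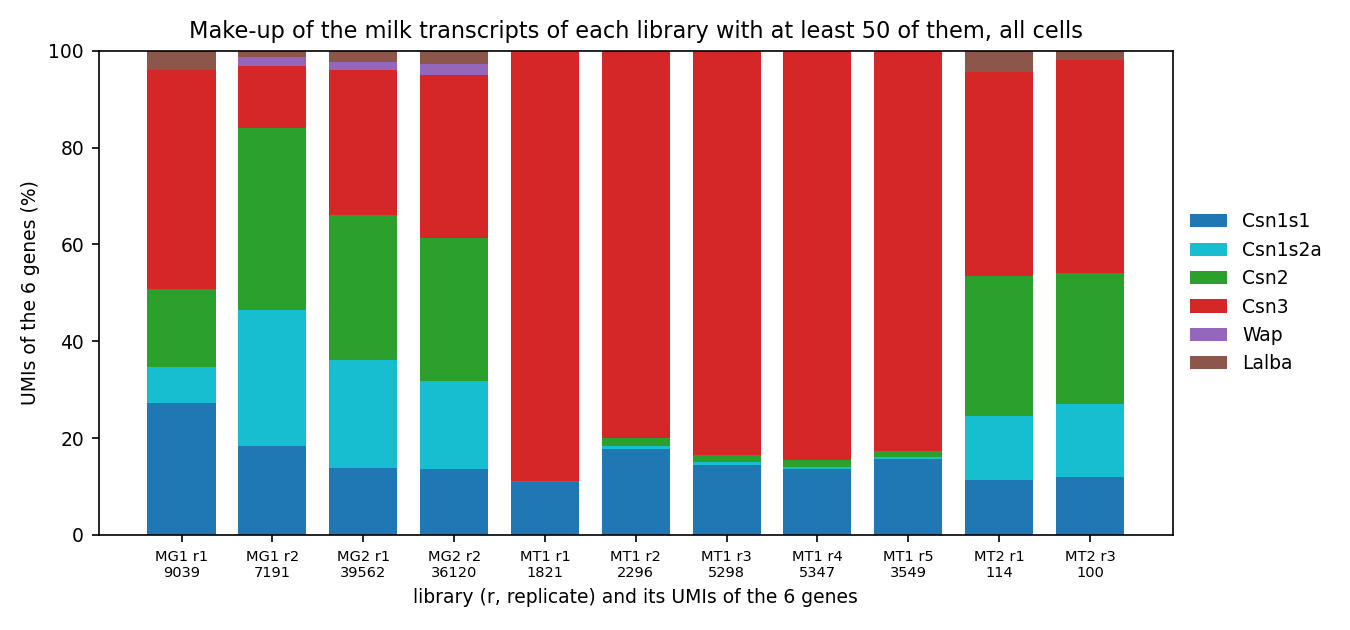
Share of each gene in the UMIs of the 6 milk protein genes, as 1 stacked bar per library, with that library's UMIs of the 6 genes below it. MT2 replicate 2 (40 such UMIs) is left out, and Csn3 takes 79.7% to 88.7% in the 5 MT1 libraries against 12.8% to 45.1% in the 4 gland libraries.

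Within the glands, most milk RNA was in the secretory-like cells. These were 276 of the 818 MG1 cells (33.7%) and held 84.2% of its milk UMIs, and 915 of the 2335 MG2 cells (39.2%) with 80.7%. Hormone-sensing-like cells (270 and 926) held 11.02% and 17.4%. Summed over the 6 genes, the secretory-like cells were at 7330 and 33144 CPM of their own UMIs in MG1 replicates 1 and 2 and at 17911 and 16160 in MG2 replicates 1 and 2. MG1 replicate 2 had only 30 secretory-like cells, and 1 of them carried 30.4% of that library's milk UMIs.

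By gene, Csn3 in secretory-like cells was at 3087, 4279, 4622 and 5057 CPM in the order MG1 replicates 1 and 2, MG2 replicates 1 and 2. Csn1s1 was at 1975, 6223, 2424 and 2184 CPM, and Lalba at 341, 406, 381 and 490 CPM. Csn2 was at 1335, 12574, 5663 and 5038 CPM, and Csn1s2a at 590, 9022, 4437 and 2996 CPM. Wap was at 2.95, 641, 384 and 396 CPM. MG1 replicate 1 was lowest for all 6 genes, and the 4 libraries were closest for Csn3 and Lalba. In these cells, edgeR called 0 of the 6 genes between MG1 and MG2, where 0.185% of 8666 genes were called (16, with 962 at unadjusted p under 0.05, and 89 by DESeq2). The log2 fold changes ran from -0.31 ± 1.27 (Wap) to 0.98 ± 0.45 (Csn1s1, adjusted p = 0.468).

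**Figure D3:**
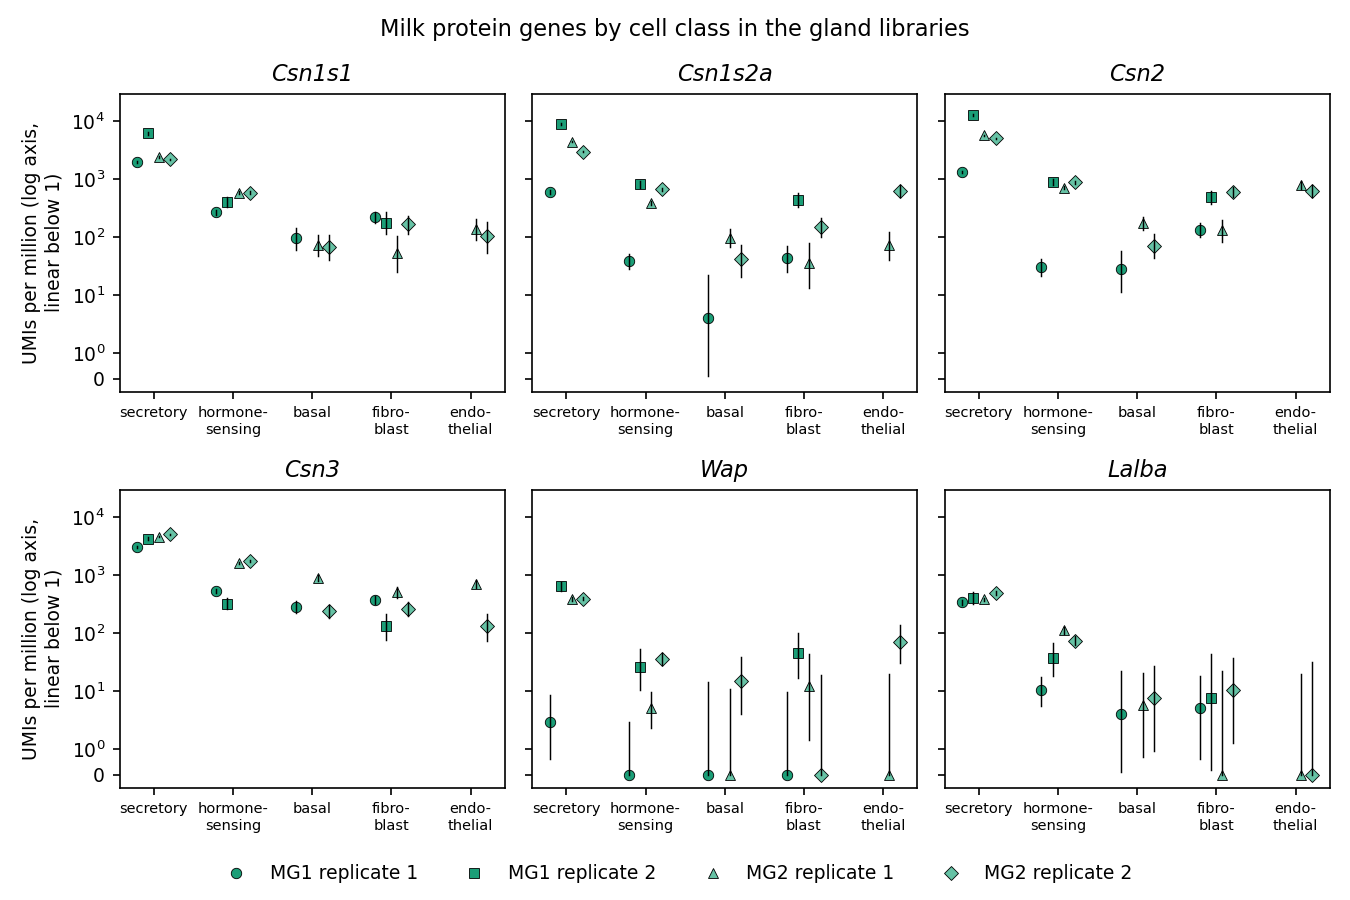
Level of each milk protein gene in secretory-like, hormone-sensing-like, basal-like, fibroblast-like and endothelial-like cells of each gland library (CPM of the UMIs of those cells, log axis, linear below 1), for classes with 20 or more cells in the library. Secretory-like cells are highest for every gene where the library has UMIs of it, and fibroblast-like and endothelial-like cells, which should lack these genes, show the background.

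Fibroblast-like and endothelial-like cells should not make milk proteins, so their level was taken as the background of free RNA and doublets. For the 6 genes together it was 8.02% of the secretory-like level in fibroblast-like cells of MG1 (exact Poisson interval of 95%, 7.31 to 8.77) and 5.79% in those of MG2 (5.21 to 6.43). In endothelial-like cells it was 6.52% in MG1 (4.87 to 8.55, 20 cells) and 9.71% in MG2 (8.88 to 10.6, 86 cells). Basal-like cells, at 5.23% in MG1 and 5.22% in MG2, lay at or below this background. The intervals cover counting error only, and single cells weighed heavily, since 1 cell held 43.7% of the milk UMIs of the MG2 endothelial-like cells and 1 cell 54.4% of those of the MG2 basal-like cells.

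Hormone-sensing-like cells lay above this background, by little in MG1 and by more in MG2. Their level was 10.3% of the secretory-like one in MG1 and 21.9% in MG2 (21.5 to 22.2). By library it was 12.1% and 7.56% in MG1 and 19.2% and 24.9% in MG2, against 10.7%, 3.89%, 4.18% and 7.39% in the fibroblast-like cells of the same libraries. In MG1, Csn2 was below the fibroblast-like level (5.88% against 7.21%), as was Wap (4.49% against 11.3%, 7 and 6 UMIs). The other genes were above it there, such as Csn3 (15.3% against 9.67%) and Csn1s1 (11.1% against 7.98%). In MG2 the level of Csn3 was 35.3% (34.4 to 36.2) against 7.85% in fibroblast-like and 10.1% in endothelial-like cells. For Csn1s1 it was 25.2% against 4.96% and 5.44%, and for Lalba 21.5% against 1.28% (2 UMIs) and 0% (no UMI, exact upper bound 2.81%). For Csn2 it was 14.8% against 7.19% and 13.7%, where 1 cell held 59.9% of the endothelial-like Csn2 UMIs. For Wap it was 5.22% against 1.43% (2 UMIs) and 6.78% (8 UMIs, all in 1 cell). Csn3 made up 45.9% of the milk UMIs in hormone-sensing-like cells of MG2 and 28.4% in secretory-like cells. The share was 38.4% in fibroblast-like, 29.5% in endothelial-like and 67.8% in basal-like cells of MG2, so it does not set hormone-sensing-like cells apart from classes at the background.

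Most of that RNA was in few hormone-sensing-like cells. No milk UMI was counted in 38.9% of them in MG1 and 47.7% in MG2, and the top 10% by thinned milk UMIs held 65.0% and 81.3% of all their milk UMIs. In MG2 these top 93 cells had more UMIs (median 4520 against 2510), higher doublet scores (median 0.129 against 0.0528) and a summed level of the secretory markers of 10161 against 1800 CPM in the other hormone-sensing-like cells. Their hormone-sensing markers summed to 2548 against 5259 CPM. Without the highest 5% of doublet scores, hormone-sensing-like cells of MG2 were at 19.1% of the secretory-like level, fibroblast-like cells at 2.92% and endothelial-like cells at 10.1%. In MG1 they were then at 6.91%, against 6.09% in fibroblast-like, 4.82% in endothelial-like and 5.23% in basal-like cells, so little of the MG1 difference was left. The part of doublets in the remaining level was not tested.

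The share of cells with a UMI of each gene was taken after every cell had been thinned to 1000 UMIs. Csn3 was detected in 87.3% of secretory-like cells of MG1 and 86.7% of MG2. In hormone-sensing-like cells the shares were 20.0% and 27.4%, and in fibroblast-like cells, the background, 18.3% and 16.1%. The median depth before thinning was 3324 and 2505 UMIs in secretory-like and 3222.5 and 2041 UMIs in fibroblast-like cells. Csn1s1 was detected in 66.7% and 62.7% of secretory-like cells against 9.52% and 5.84% of fibroblast-like cells. Csn2 was detected in 15.9% and 42.7%, Csn1s2a in 14.5% and 26.4%, Lalba in 5.80% and 18.1%, and Wap in 1.45% and 6.12% of secretory-like cells. In fibroblast-like cells the shares were 14.3% and 6.57% for Csn2, 4.76% and 2.19% for Csn1s2a, 0% and 0.730% for Lalba and 1.59% and 0% for Wap. The pooled Csn2 and Wap shares of secretory-like cells in MG1 were thus not above this background beyond counting error (for Csn2, 11.8 to 20.8 against 8.69 to 21.6). The 2 MG1 libraries differed, with Csn2 detected in 28 of 246 secretory-like cells of replicate 1 and 16 of 30 of replicate 2. Wap was detected in 0 and 4 of these cells. Without thinning, Csn3 was detected in 95.3% and 94.5% of secretory-like cells, Csn1s1 in 85.1% and 78.4%, and Csn2 in 34.8% and 56.2%. At 1000 UMIs per cell, Csn3 and Csn1s1 were thus detected in most secretory-like cells of each pooled group and the other 4 genes in a minority. In MG1 replicate 2 this split did not hold, with Csn1s1 and Csn2 each in 16 of 30 cells and Csn1s2a in 13. In MG1 replicate 1, Csn1s2a was detected in 27 of 246 cells.

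The number of members seen together in a thinned cell was graded. At least 1 member was seen in 94.6% of secretory-like cells of MG1 and 93.6% of MG2. At least 4 were seen in 8.33% and 23.9%, and all 6 in 2 of 276 and 27 of 915 cells. In hormone-sensing-like cells at least 1 member was seen in 35.2% and 36.8%, and in fibroblast-like cells in 36.5% and 21.9%.

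Among secretory-like cells the casein and whey genes were spread very unequally. In MG2 the median cell had 9 Csn3 UMIs and the highest 506, whereas for Csn2 the median was 1 and the highest 1412. For Csn1s2a the median was 0 and the highest 1122, and for Wap 0 and 134. In MG1 the medians were 10 for Csn3, 4 for Csn1s1 and 0 for Csn2 and Csn1s2a, with highest counts of 146, 305, 1047 and 719. In the 915 cells of MG2, 50% of the Csn3 UMIs were in 84 cells, and for the other genes 50% were in 64 (Csn1s1), 36 (Lalba), 27 (Csn2), 15 (Csn1s2a) and 8 (Wap) cells. Csn3 was the most evenly spread gene, and Wap the least.

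At equal depth (1000 UMIs per cell), the top 10% of secretory-like cells held 46.5% of the milk UMIs in MG1 and 54.5% in MG2. By gene they held 29.6% and 31.3% of Csn3 and 45.8% and 45.9% of Csn1s1. They held 95.4% and 72.2% of Csn2 and 94.5% and 88.1% of Csn1s2a. Before thinning the shares for the 6 genes together were 69.0% and 65.7%. For genes detected in few cells, such as Wap (100% in both), the top 10% includes nearly every cell with a UMI.

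**Figure D4:**
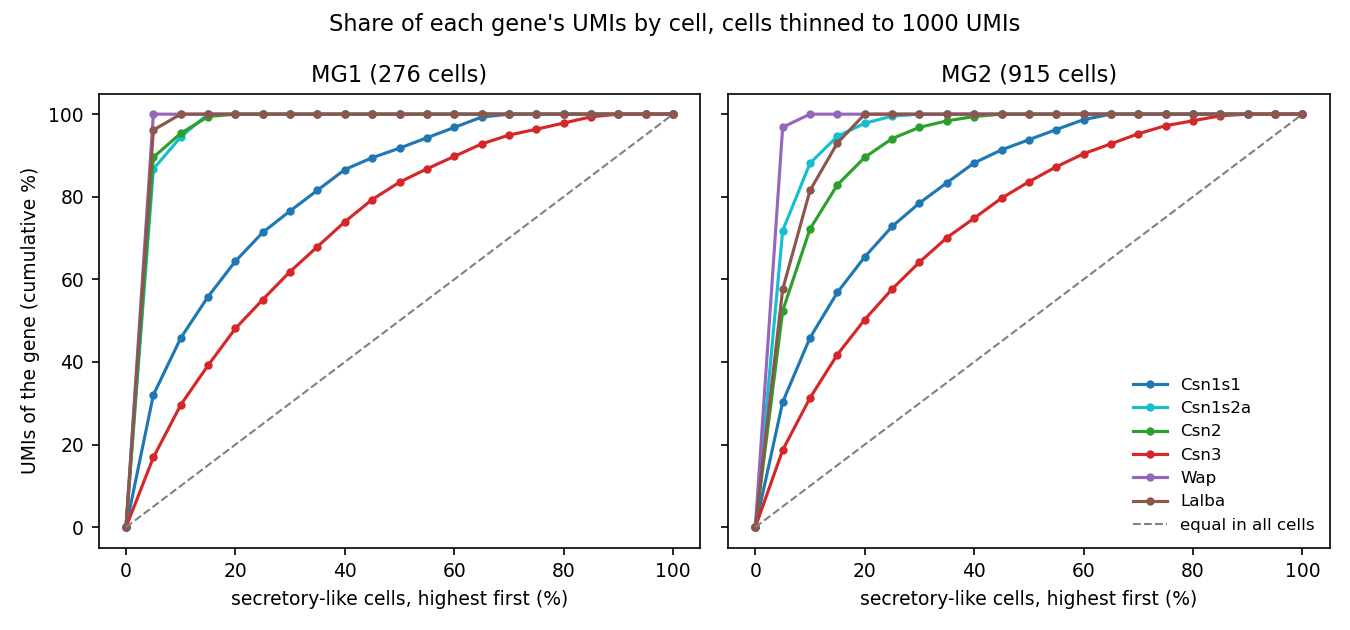
Cumulative share of a gene's UMIs (vertical axis, %) against secretory-like cells ranked from highest to lowest (horizontal axis, %), after thinning to 1000 UMIs, for MG1 (276 cells) and MG2 (915 cells), with 1 line per gene and a dashed line for equal UMIs in all cells. The top 10% of cells hold 29.6% and 31.3% of Csn3 UMIs but 95.4% and 72.2% of Csn2 UMIs in MG1 and MG2.

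Single cells decided some library values. The cell with most milk UMIs in MG1 replicate 1 had 1410 (5.39% of its UMIs), with 463 Csn1s2a, 538 Csn2 and 268 Csn1s1 UMIs but only 12 of Csn3. It held 77.04% of the Csn1s2a UMIs of all 246 secretory-like cells of that library. In MG1 replicate 2 the top cell had 2184 milk UMIs, of which 1047 were Csn2, 719 Csn1s2a and 67 Csn3. In MG2 the top cells of replicates 1 and 2 had 2371 and 2394 milk UMIs, 21.5% and 21.9% of their UMIs. None of these 4 cells had a doublet score in the highest 5% of its library.

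Csn2 and Csn1s2a went together from cell to cell, and Csn3 went more loosely with both. Over the 915 secretory-like cells of MG2, thinned to 1000 UMIs, Spearman's rho was 0.68 between Csn1s2a and Csn2, 0.49 between Csn1s1 and Csn2, 0.37 between Csn2 and Csn3 and 0.18 between Csn3 and Wap. Of the 242 cells with Csn1s2a, 209 also had Csn2, which was seen in 391. Over the 276 cells of MG1 rho was 0.45 between Csn1s2a and Csn2 and 0.12 between Csn2 and Csn3. In MG1 replicates 1 and 2 apart it was 0.34 and 0.71 for Csn1s2a with Csn2, and 0.078 and 0.36 for Csn2 with Csn3. These are descriptions across cells of shared libraries, with sparse counts.

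The cells with most milk RNA also held more of other secreted milk components. The top 10% of secretory-like cells were compared with the rest on CPM without the 6 genes, as a description. In MG2, Glycam1, a mucin of the milk fat globule, was at 7608 CPM in the top 92 cells and 10.9 CPM in the other 823, with 847 of 2331 UMIs in 1 top cell of replicate 1 and 500 of 734 in 1 of replicate 2. The fatty acid binding protein gene Fabp3 was at 660 and 18.6 CPM, the fatty acid translocase gene Cd36 at 387 and 14.4 CPM, and the lipoprotein lipase gene Lpl at 392 and 22.1 CPM. The further casein gene Csn1s2b was at 365 and 4.49 CPM. Of its UMIs in the top cells, 1 cell held 51 of 72 in MG2 replicate 1 and 1 cell 69 of 75 in MG2 replicate 2. In MG1 the values were 4162 and 24.1 CPM for Glycam1, 806 and 6.76 CPM for Fabp3 and 185 and 1.93 CPM for Cd36, and Csn1s2b was not counted. These MG1 differences came from replicate 2, whose 11 top cells held 651 Glycam1 (360 in 1 cell), 124 Fabp3 and 29 Cd36 UMIs, whereas the 17 top cells of replicate 1 held 0, 2 and 0.

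By list, the 12 other milk protein genes were together 2.81-fold higher in the top cells of MG1 and 2.59-fold in those of MG2, and the 12 milk fat genes 4.87-fold and 3.25-fold. By library the other milk protein genes were 2.53-fold and 2.64-fold higher in MG1 replicates 1 and 2, and the milk fat genes 2.47-fold and 5.87-fold. The 12 secretory markers, which share Wfdc18, Trf, Ltf and Mfge8 with the milk protein list, were higher too. They were 3.13-fold and 1.88-fold higher in MG1 replicates 1 and 2, and 2.34-fold and 2.31-fold in MG2 replicates 1 and 2. In MG1 and MG2 the 7 lactose genes were 1.61-fold and 1.31-fold higher, and the 12 genes of the prolactin and Stat5 axis 1.08-fold and 1.13-fold. Within that axis, Elf5, a transcription factor of alveolar cells, was at 141 against 54.1 CPM in MG1 (15 UMIs in the top cells of replicate 1 and 7 in those of replicate 2) and 164 against 67.7 CPM in MG2. The progenitor marker Aldh1a3, also 1 of the 12 secretory markers, was the other way round. It was at 19.2 against 115 CPM in MG1 and 2.48 against 63.5 CPM in MG2. Its UMIs in the top cells were 2 and 1 in MG1 replicates 1 and 2, and 0 and 1 in MG2 replicates 1 and 2. Proliferation genes were at 0.858-fold and 0.722-fold, but by library at 0.763-fold and 1.07-fold in MG1 and 1.03-fold and 0.374-fold in MG2, with no common direction. Hormone-sensing markers were by library at 0.889-fold and 1.16-fold in MG1 and 1.89-fold and 1.48-fold in MG2. Doublet scores of top and other cells had medians of 0.0416 and 0.0436 in MG1 and 0.0416 in both sets of MG2, and 0 of the top cells were among the highest 5% of scores.

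In MT1 the milk RNA came from tumor clusters and from a few cells placed with the gland lineages. The Sfrp1-high cells (3479) held 68.7% of the MT1 milk UMIs, the Ccl20-high cells (2536) 19.3% and the Prl2c3-high cells (1348) 2.09%. The 68 hormone-sensing-like cells of MT1 held 2.16%, at 1682 CPM of Csn3 and 671 CPM of Csn1s1. The 23 secretory-like cells of MT1 were 0.299% of its cells and held 6.83%. These 23 cells were at 13736 CPM of Csn3 and 6208 CPM of Csn1s1, but at 495 CPM of Csn2, 149 CPM of Csn1s2a and 66.04 CPM of Lalba (4 UMIs), with no Wap UMI. Against secretory-like cells of the MG1 libraries (1335 and 12574 CPM of Csn2) they were thus high in Csn3 and low in Csn2.

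The MT1 tumor clusters differed in Csn3 and Csn1s1 in every library. In Sfrp1-high cells Csn3 was at 1566, 844, 977, 1329 and 1277 CPM in MT1 replicates 1 to 5. In Ccl20-high cells it was at 673, 388, 448, 527 and 680 CPM, and in Prl2c3-high cells at 90.3, 36.9, 92.9, 136 and 43.7 CPM. The order Sfrp1-high, Ccl20-high, Prl2c3-high held in 5 of 5 libraries without overlap between the clusters. Csn1s1 was at 202, 165, 180, 232 and 283 CPM in Sfrp1-high cells and at 19.6, 14.6, 30.03, 31.7 and 57.7 CPM in Ccl20-high cells. Fibroblast-like cells of MT1 replicates 2 to 5 were at 262, 151, 68.2 and 190 CPM of Csn3, and a single cell held 85.7% of it in replicate 2 and 81.8% in replicate 5. Endothelial-like cells of replicates 3 and 4 were at 56.3 and 90.2 CPM (4 and 6 UMIs), below the Prl2c3-high cells of those libraries. The 16 endothelial-like cells of replicate 5, too few to be shown by level, held 1.74% of its Csn3 UMIs but 0.954% of all its UMIs. This places them above that library's 821 CPM over all cells, and so above its Ccl20-high cells. Over all MT1 libraries, endothelial-like cells were at 289 CPM of Csn3 (65 UMIs, 49.2% in 1 cell). In replicates 2, 3 and 5 the Prl2c3-high cells were below the fibroblast-like cells of their library and in replicate 4 above them, and in these 4 libraries the Sfrp1-high and Ccl20-high cells were above the fibroblast-like cells in Csn3.

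**Figure D5:**
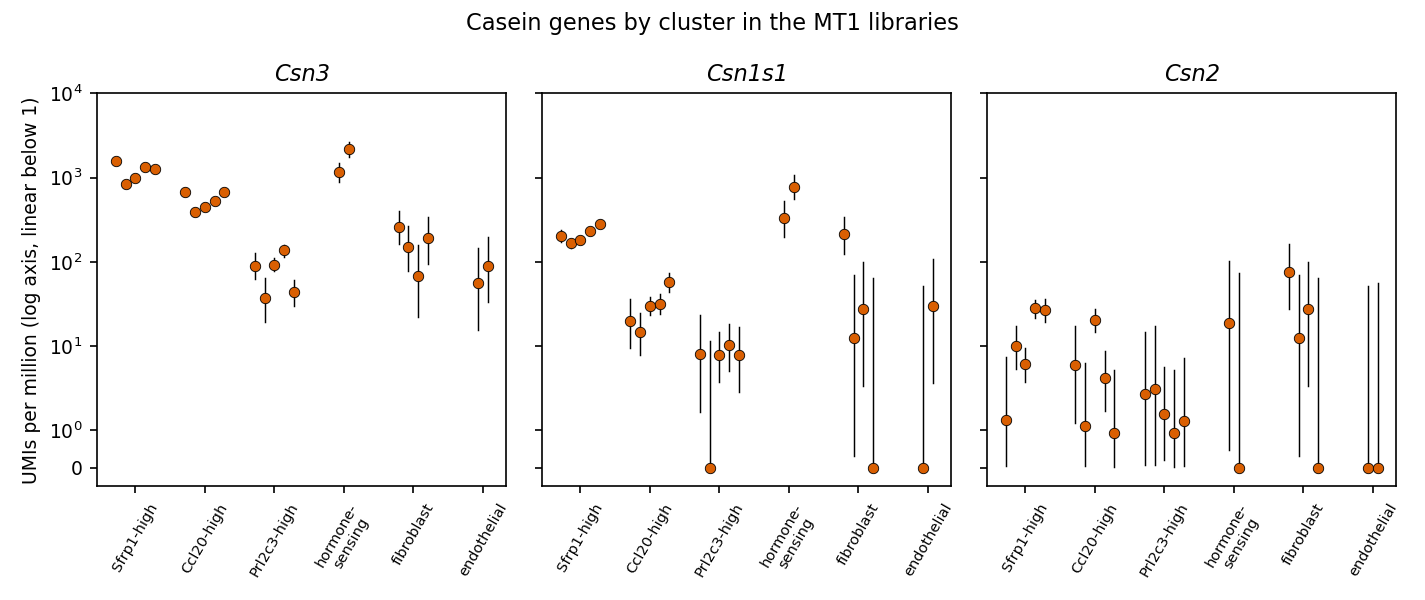
Level of casein genes in clusters of the MT1 libraries (CPM of the UMIs of those cells, log axis, linear below 1), with 1 point per library with 20 or more cells of the cluster. Csn3 is at 844 to 1566 in Sfrp1-high cells, 388 to 680 in Ccl20-high cells and 36.9 to 136 in Prl2c3-high cells.

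At 1000 UMIs per cell, Csn3 was detected in 28.4% of Sfrp1-high cells (exact binomial interval of 95%, 26.9 to 29.9) and 22.5% of Ccl20-high cells (20.9 to 24.2). In Prl2c3-high cells the share was 3.41%, and in the fibroblast-like and endothelial-like cells of MT1, the background, it was 8.09% (4.11 to 14.01) and 7.45% (3.05 to 14.7). Median depth before thinning was 2116, 2042.5, 2327.5, 1911 and 1933 UMIs in these 5 sets, and without thinning the shares were 40.3%, 33.4%, 9.57%, 13.2% and 13.8%. Csn1s1 was detected in 10.4% of Sfrp1-high, 2.29% of Ccl20-high (1.74 to 2.95) and 0.735% of fibroblast-like cells (0.0186 to 4.03). By level, Csn1s1 was at 32.2 CPM in Ccl20-high cells and 64.2 CPM in fibroblast-like cells of MT1 (20 UMIs, 80.0% in 1 cell), so it was not shown to be above the background in Ccl20-high cells. Of the 12 secretory markers, Elf5, Cd14, Wfdc18 and Trf were at least 2-fold above the other cells in the Sfrp1-high cluster, and Elf5, Kit, Wfdc18 and Plb1 in the Ccl20-high cluster. At a finer resolution of 1.0, Csn3 was at 2033 CPM in a Col9a1-high cluster, 1020 in Sfrp1-high, 791 in Krt6a-high and 499 in Ccl20-high cells. By library, Krt6a-high cells ranged from 164 to 1330 CPM and were below Ccl20-high cells in replicates 1, 2 and 4 and above them in replicates 3 and 5.

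MT2 cells were at the limit of detection. Of its 254 milk UMIs, 148 were in Ptgs2-high cells (5639), 80 in Cenpe-high cells (4129) and 15 in the 2 cells placed with the secretory-like cluster. At 1000 UMIs per cell, Csn3 was detected in 0.231% of Ptgs2-high and 0.0727% of Cenpe-high cells. No Csn3 was detected in the 296 fibroblast-like cells of MT2 at that depth, which allows a share of up to 1.24%, so the tumor cells of MT2 could not be told from this background.

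Other genes of milk synthesis were compared in the same edgeR fit. Of 12 other milk protein genes, 2 rose and 8 fell in MT1 (32.2% and 27.1% of all genes), with a median log2 fold change of -1.92 against 0.11 over all genes. In MT2, 1 rose and 11 fell (32.7% and 34.2% of all genes), with a median of -9.73 against -0.05. Without MG1 replicate 1, 1 rose in MT1. The lowest fitted log2 fold changes in MT1 were those of Lao1, an L-amino acid oxidase of milk, which was at least 99.95-fold lower (0 UMIs in MT1), and Glycam1 (log2 fold change -8.54 ± 1.14), which turned to 6.40 without MG1 replicate 2. In MT2, Muc15 and Pigr, the polymeric immunoglobulin receptor, had the lowest fitted log2 fold changes, with 0 UMIs in MT2 and at least 1909-fold and 812-fold lower. These bounds do not place Pigr below Ltf, the lactoferrin gene, which went from 572 to 0.365 CPM. Wfdc18, a whey acidic protein relative that was also used as a secretory marker, rose in MT1, from 2129 CPM in MG1 to 6216 CPM, and fell in MT2, from 2877 to 11.8 CPM. Csn1s2b rose in MT1 too, with 34 UMIs against 0 in MG1, at least 1.85-fold higher.

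Of 12 genes of milk fat synthesis and secretion, 2 rose and 8 fell in MT1 (32.2% and 27.1% of all genes, median -2.93 against 0.11), and 1 rose and 10 fell in MT2 (32.7% and 34.2% of all genes, median -5.11 against -0.05). In MT1 the thioesterase gene Olah had 0 UMIs and was at least 38.8-fold lower, and Fabp3 fell by 6.54 on the log2 scale, which no longer passed when MG1 replicate 2 was left out (-1.17). The lipid droplet gene Plin2 rose in MT1 (1.49 ± 0.19, edgeR adjusted p = 3.34e-06), as did Thrsp (1.37 ± 0.52, edgeR adjusted p = 0.0319). Of these 2 calls 1 was lost by DESeq2 and without MG1 replicate 1, MG1 replicate 2 or MT1 replicate 4. The genes called lower in MT1 were 5 without MG1 replicate 2, and none was called higher in MT2 by DESeq2 or under 4 other alternatives. In MT2 the butyrophilin gene Btn1a1 and the lipid droplet gene Cidea had 0 UMIs and were at least 766-fold and 661-fold lower.

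Lactose genes moved less. Of 7, 3 rose and 3 fell in MT1 (median 0.45, 32.2% and 27.1% of all genes), and 3 rose and 4 fell in MT2 (median -0.45, 32.7% and 34.2% of all genes). Without MG1 replicate 1, 1 rose in MT1, and without MG2 replicate 2, 1 fell in MT2. The largest changes were in the hexokinase gene Hk2 (-1.38 ± 0.19) and the UDP-galactose transporter gene Slc35a2 (1.30 ± 0.33, not called without MG1 replicate 1) in MT1, and in the water channel gene Aqp5 (-1.38 ± 0.27) and Slc35a2 (1.25 ± 0.22) in MT2.

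In the prolactin and Stat5 axis, 1 gene of 12 rose and 6 fell in MT1 (32.2% and 27.1% of all genes, median -0.55), and 2 rose and 7 fell in MT2 (32.7% and 34.2% of all genes, median -0.62). Without MT1 replicate 2, 4 rose in MT2. The prolactin receptor gene Prlr fell in both, from 1632 CPM in MG1 to 52.4 CPM in MT1 and from 1250.5 CPM in MG2 to 0.688 CPM in MT2. Gata3, a luminal transcription factor, fell by 2.79 on the log2 scale in MT1. Elf5 was the gene of this list that rose in MT1, from 33.9 to 51.9 CPM (0.59 ± 0.19, edgeR adjusted p = 0.0109, not called by DESeq2), and in MT2 it fell from 42.1 to 0.151 CPM. The interaction between the mice was called higher in 9 and lower in 0 of the 12 other milk protein genes, against 26.4% and 17.1% of all genes, and in 4 and 4 of this axis. Prlr is also a hormone-sensing marker, and Elf5, Wfdc18, Trf, Ltf and Mfge8 are also secretory markers, so these lists are not independent of the classes.

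The genes whose levels were most like the milk protein genes were ranked over 53 sums of cells of 1 class in 1 library. Pearson's r with the mean log2(CPM + 10) of the 6 genes was highest for Muc4 (0.90), Muc15 (0.87), Pigr (0.87), Saa1 (0.87), Ntng1 (0.85), Ltf (0.85), Slc5a1 (0.84), Cidea (0.84), Plet1os (0.83) and Btn1a1 (0.83). Muc4 and Muc15 encode membrane mucins, Ltf lactoferrin, and Slc5a1 a sodium-glucose transporter. Among the members, r was highest between Csn1s2a and Csn2 (0.96) and between Csn1s1 and Csn3 (0.87), and lowest between Csn3 and Wap (0.44). Classes of 1 library share their free RNA and groups share libraries, so these r are descriptions.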

How the data were processed

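Single cells of glands and tumors were captured by Drop-seq, in which a UMI marks each captured RNA molecule. The authors aligned reads with STAR to GRCm38.p6, per the labels' processing notes, removed cells on gene number and mitochondrial share, and deposited raw UMI counts, not normalized, for each gene in each cell. Drop-seq reads 3' ends, and how reads were divided among overlapping genes is not given in the sources used here. Each library was assigned to MG1, MG2, MT1 or MT2 by its labels, and replicate numbers follow accession order and pair nothing.

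Cells were clustered without the 6 genes (scanpy 1.11.5, leidenalg 0.10.2, Python 3.11.15, 3000 variable genes, 30 components, 20 neighbours, resolution 0.6). A cluster took the "X-like" name of a lineage list on 2 conditions. At least 3 of its markers were raised by 1 or more on the log2 scale, and at least as many were raised as not. Where more than 1 list passed, the largest share gave the name. Where none passed, clusters with at least 3 general epithelial markers raised were called epithelial-like, and the rest unnamed. Doublet calling found only 44 cells (0.208%), so it was not relied on, and an alternative dropped the 5% of each library's cells that scored highest as doublets. Counts of 20033 cells outside stromal clusters were summed per library. The sums entered edgeR 4.0.16 (R 4.3.3) as 12 libraries in 4 groups, with TMM, filterByExpr and the quasi-likelihood test at a Benjamini-Hochberg adjusted p under 0.05. A fit of 4 sums used the mouse as block, with the pairing of gland and tumor taken from the mouse in the labels. On simulated counts, 77.5% of 200 changed genes were recovered in MT1 against MG1 (13653 genes). For shares of cells, cells were thinned to 1000 UMIs, a depth that every cell reached. Intervals are exact (95%), and 3 counts were the limit for a gene not counted. Both cover counting error only.

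Named were the 6 members, the 2 called genes of each list with the largest change in each mouse, and the 10 genes most like the members. Others were named after their values were seen. The members and lists were chosen with earlier results of these data known. Alternatives were DESeq2 1.42.0, RLE factors, no filter, totals without the 6 genes, other cell sets, another resolution or thinning, clustering with the 6 genes, and leaving out each library. The exact permutation test (scipy 1.17.1) and leaving out the cell with most milk UMIs in each library were added after seeing the data.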

Additional observations from a re-analysis of the deposited data

Results flagged for a closer look

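Csn2 in MT1 replicate 1 stood apart from the other MT1 libraries, at 2.94 CPM against 11.9 to 14.9 CPM, as did its share of the milk UMIs of that library, 0.275%, with 5 Csn2 UMIs counted. The level and the share of each gene over the 5 MT1 libraries were looked at in this way, 12 sets in all, and chance alone gives a library apart in about 1 of 20 sets. Leaving out this library changed no call of the 6 genes in MT1 against MG1.

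The tumor-to-gland difference of 4 genes differed between the mice by the interaction in edgeR, with mouse 1 minus mouse 2 at 9.14 for Csn3, 7.10 for Csn1s1, 3.79 for Lalba and 2.74 for Csn2 on the log2 scale. The direction was the same in both mice, lower in the tumor, and the size differed. With 1 tumor per mouse, the mouse, the tumor and the preparation cannot be told apart.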

How the results depend on the processing

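In MT1 against MG1 and in MT2 against MG2, all 6 genes kept their direction under every alternative, and all kept their call except Wap in MT1 without MG1 replicate 2 (-1.70). Over 20 alternatives the log2 fold change in MT1 ranged from -1.12 to -0.72 for Csn3, -3.88 to -2.81 for Csn1s1, -9.85 to -6.32 for Csn1s2a, -8.45 to -5.60 for Csn2, -9.05 to -1.70 for Wap and -7.04 to -6.17 for Lalba. RLE factors moved the median log2 fold change of all genes in MT1 against MG1 from 0.11 to 0. With the mouse as replicate, edgeR called 0 members with or without the replicate block, and DESeq2 with the replicate block called 6 (1329 genes against 0). Glycam1 in MT1 ranged from -9.49 to 6.40 when libraries were left out. For the interaction, Csn2 was not called by DESeq2 (2.46), Csn1s2a was called without MG1 replicate 2 (4.51), and Wap was called by DESeq2 (5.16) and without MG1 replicate 1 (3.99) or 2 (11.39).

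MG1 against MG2 was unstable. With all cells 2 members were called (1140 of 14106 genes, against 733 of 13653), without the cell with most milk UMIs 1, and with libraries left out 0 to 3 (3 without MG1 replicate 1 or 2, 1 without MT2 replicate 2). Leaving out libraries moved the log2 fold change from -0.31 to 0.77 for Csn1s1, -2.75 to 0.80 for Csn1s2a, -2.17 to 0.71 for Csn2 and -7.11 to 0.26 for Wap. Csn1s2a turned to 0.036 without a filter, 0.14 with RLE factors and 0.16 with DESeq2, and Csn2 to 0.0065, 0.11 and 0.12. Over all genes, 348 were higher and 385 lower, against 440 and 302 with RLE factors. In secretory-like cells, leaving out libraries gave 0 to 4 calls (4 without MG1 replicate 1, where 752 of 9924 genes were called, and 3 without MG1 replicate 2, where 1368 of 10027 were called, against 16 of 8666) and moved Csn1s2a from -2.38 to 1.34, Csn2 from -1.72 to 1.30, Wap from -6.73 to 0.79 and Lalba from -0.20 to 0.10. Without the cell with most milk UMIs, Csn1s2a turned to -0.0447 and Csn2 to -0.0304. DESeq2 called 89 genes there, and edgeR without a filter 0 (1184 at unadjusted p under 0.05). Without MG1 replicate 1 or 2 each, the secretory-like level of MG1 was 33144 or 7330 CPM.

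Without the highest 5% of doublet scores, the share of milk UMIs in secretory-like cells was 89.2% in MG1 and 85.0% in MG2, and the fibroblast-like and endothelial-like level in MG2 was 6.11% of the secretory-like one. Clustering with the 6 genes gave 84.9% in MG2. Without thinning, the top 10% of cells held 69.0% (MG1) and 65.7% (MG2). The cause of these changes was not tested. Where an arm was left with 1 library, its spread was assumed to be that of the other groups. Depth limits Wap and Lalba in the tumors most, where 7 and 0 Wap UMIs were counted.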

Other observations

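Csn1s2b, the fifth casein gene of the chromosome 5 region, was counted in MG2 (175 UMIs outside stromal clusters) and MT1 (34 UMIs) and in neither MG1 nor MT2. Of the 147 UMIs in the top secretory-like cells of MG2, 51 and 69 were in 1 cell of each library. In MT2 it was at least 299.8-fold lower than in MG2.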
